A study of Mus musculus with 9 samples.

Results

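Broad coding promoter regions were accessible stretches of at least 2000 bp at the starts of protein-coding genes in the heart-forming tissue of the mouse embryo. A region was counted when the list assigned it to a coding RefSeq transcript (an NM accession), when its center lay within 1000 bp of the transcription start site (TSS) of that transcript, and when it spanned at least 2000 bp. Of 17164 distinct accessible regions, 872 met these conditions (5.08%), as did 9.95% of the 8765 coding promoter regions. The remaining 7893 coding promoter regions, here called narrow, were the main comparison.

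The study asked how the transcription factor Isl1 and the chromatin remodeler Brg1 shape open chromatin in cardiac progenitors, and profiled accessibility by ATAC-Seq in 9 libraries, 3 per group. All groups were pharyngeal mesoderm and hearts taken at embryonic day 8.75 (6 somites), from wt embryos, from Isl1-/- embryos and from Isl1Cre+/-/ Brg1fl/fl embryos, in which Cre is driven from the Isl1 locus. The values used here were 1 list of wt control regions in mm9 coordinates, kept where peaks of the 3 libraries shared at least 1 bp. Both mutant groups were not analysed here. The list held positions, an assigned gene and a distance, with no read count, signal height or value per library, so depth is unknown, nothing below has a replicate error and no difference was tested. The tissue was dissected whole and holds several cell types, so a region may have been open in part of the cells only. Of 35 genes listed as regulators of heart development, 22 had a region in the list (62.9%), against 45.8% of all protein-coding genes. Sarcomere genes were lower, at 27 of 67, and lists of other tissues were not all low, with 14 of 20 endothelial, 10 of 15 neural crest, 10 of 17 neural and 3 of 19 blood genes. Heart regulators with no region assigned included Nkx2-5, Tbx5 and Hand1, and sarcomere genes with none included Myh6, Tnnt2 and Ttn. An accessible region is not a measure of expression.

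Most mammalian promoters lie in CpG islands, stretches in which CpG dinucleotides have been kept because they stay unmethylated in the germ line. ATAC-Seq reports them as open because the Tn5 transposase inserts adapters where nucleosomes are sparse, as they are around the start sites of active and poised genes. Promoters of developmental regulators often sit in long or clustered CpG islands, whereas those of housekeeping genes usually have 1 compact island with sites for factors such as ETS proteins and NRF1.

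The sequences below show how far the members differed in CpG content. Each is 200 bases of the mm9 genome (assembly NCBIM37), read 5′ to 3′ on the strand of the gene, with every CpG in capitals. The windows contained no annotated exon. Spry2, an inhibitor of receptor tyrosine kinase signaling, had the widest region, and the 200 bases shown (chr14:106296288-106296487, minus strand, from 451 to 252 bases before the start) held 25 CpGs. Sox12, a SoxC transcription factor, had the widest at a transcription factor gene, and its window (chr2:152223783-152223982, minus strand, ending 1 base before the start) held 30. Ppp4r1, a regulatory subunit of protein phosphatase 4, had the highest CpG frequency of all members, and its window (chr17:66132366-66132565, plus strand) held 37.
Spry2: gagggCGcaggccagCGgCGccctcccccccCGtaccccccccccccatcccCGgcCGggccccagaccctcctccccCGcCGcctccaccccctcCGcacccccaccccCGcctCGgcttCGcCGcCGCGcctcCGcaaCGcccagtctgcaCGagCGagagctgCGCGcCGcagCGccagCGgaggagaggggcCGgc
Sox12: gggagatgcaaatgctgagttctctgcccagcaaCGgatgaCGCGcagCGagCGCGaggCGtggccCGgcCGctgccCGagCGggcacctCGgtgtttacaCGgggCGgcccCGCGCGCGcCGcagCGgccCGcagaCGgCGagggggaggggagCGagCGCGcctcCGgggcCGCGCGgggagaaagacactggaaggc
Ppp4r1: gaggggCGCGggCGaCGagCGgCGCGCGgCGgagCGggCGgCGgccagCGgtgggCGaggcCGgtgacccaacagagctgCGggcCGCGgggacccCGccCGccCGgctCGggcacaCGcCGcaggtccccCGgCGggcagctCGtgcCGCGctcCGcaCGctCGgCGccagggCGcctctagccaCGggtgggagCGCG

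The other set is CpG-poor. Fgf10, a growth factor of the second heart field, had the widest region among the cardiac regulators, and the bases just before its start (chr13:119503306-119503505, plus strand) held 5 CpGs. Grik2, a kainate receptor subunit, had the lowest CpG frequency, and its window (chr10:49509177-49509376, minus strand) held 0.
Fgf10: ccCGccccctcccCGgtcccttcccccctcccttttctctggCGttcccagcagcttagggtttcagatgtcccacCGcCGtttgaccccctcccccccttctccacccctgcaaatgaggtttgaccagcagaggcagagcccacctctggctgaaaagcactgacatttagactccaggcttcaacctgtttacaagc
Grik2: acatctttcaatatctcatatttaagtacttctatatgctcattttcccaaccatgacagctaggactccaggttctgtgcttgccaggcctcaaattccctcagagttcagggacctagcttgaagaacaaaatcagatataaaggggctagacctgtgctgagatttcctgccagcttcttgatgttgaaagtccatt

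The 872 broad regions belonged to 867 genes, out of 8582 genes with a coding promoter region. Their median width was 2306 bp (quartiles 2122 and 2578 bp), and together they covered 2.11 Mb, or 10.0% of all covered bases. Narrow promoter regions had a median of 1251 bp. The members were chosen by width and by distance to the start, so these values are a description. There was no break in the distribution at the limit, with 242 promoter regions of 1900 to 1999 bp and 187 of 2000 to 2099 bp. Just inside it lay Wbp4, Trim36 and Mbd5 at 2000 bp and Cox20 at 2001 bp, and just outside, at 1999 bp each, were Zadh2, Acvr1, Edem1 and Cecr6. In the central 1000 bp the inside regions had 5.40 to 11.8 CpGs per 100 bp, and the outside regions had 10.7 to 13.3.

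**Figure D1:**
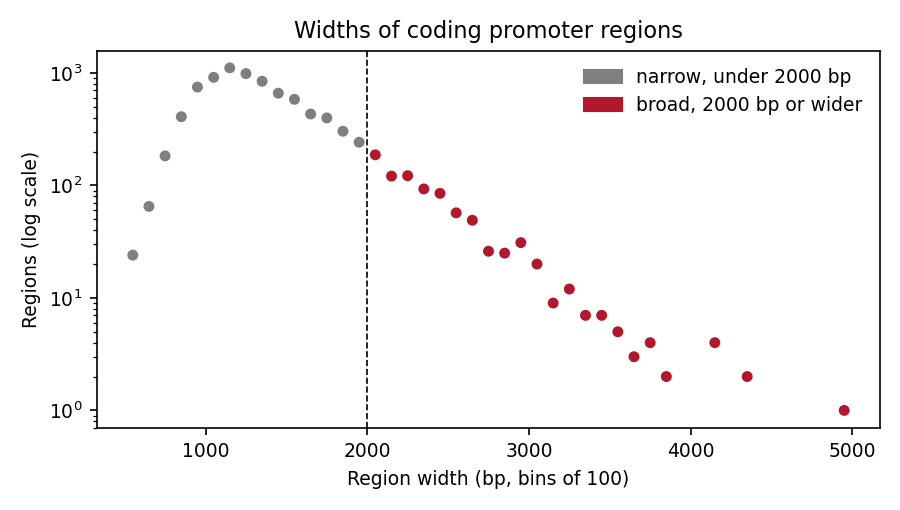
Number of coding promoter regions (log scale) in bins of 100 bp of region width, with narrow regions in gray, broad regions in red and the 2000 bp limit as a dashed line; empty bins are not drawn. The counts fell without a gap across the limit, from 242 to 187, and the widest region spanned 4983 bp.

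The 12 widest members were led by regulators of signaling and transcription. The Spry2 region spanned 4983 bp, reached 2843 bp upstream and 2139 bp downstream of the start, and had 9.70 CpGs per 100 bp. Sox12 followed at 4348 bp and the metalloprotease gene Adamts1 at 4303 bp. Jun, a subunit of the AP-1 transcription factor, and Cdk6, a kinase of the G1 phase, both had 4187 bp. The zinc-finger gene Hivep2 had 4115 bp and Klf13, a GC-box binding factor, had 4101 bp. Next came the adhesion receptor Adgrl3 at 3876 bp, the orphan nuclear receptor Nr4a2 at 3826 bp, Fam46a at 3766 bp, the insulin receptor substrate Irs1 at 3745 bp and the cell cycle factor E2f3 at 3741 bp. They were not alike in base composition: Sox12 and Klf13 had 14.9 and 13.0 CpGs per 100 bp in their centers, while Nr4a2 and Adgrl3 had 4.90 and 5.20, fewer than the narrow median of 6.60. These values are for the region center, which lay well upstream of the start in Nr4a2 and well downstream in Klf13.

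Broad regions had more CpGs in a window of fixed size. The central 1000 bp had a median of 8.90 CpGs per 100 bp (interval 8.40 to 9.20), compared with 6.60 (interval 6.50 to 6.70) in narrow promoter regions and 2.60 (interval 2.30 to 2.80) in the 1126 regions with centers more than 1 kb and up to 10 kb from a coding start. Intervals of medians are 95% binomial order-statistic intervals and those of shares are 95% Wilson intervals. Both cover counting error over regions or genes only, not differences between embryos or libraries. Median GC content in the same window was 66.6% in broad, 60.3% in narrow and 52.4% in the flanking class. The ratio of observed to expected CpGs, which allows for GC content, was 0.812, 0.744 and 0.397. Over whole regions, whose length differs, the medians were closer, at 6.43 in broad (interval 6.27 to 6.56) and 5.90 in narrow regions (interval 5.83 to 5.96). Centering the 1000 bp on the annotated start in place of the region center gave 8.80 for 783 broad and 6.50 for 7374 narrow regions, those for which an annotated start matched the listed distance within 100 bp. The difference had the same direction on each of the 20 chromosomes. The spread among members was wide, with an interquartile range of 6.50 to 11.3 that overlapped the 4.90 to 8.70 of narrow regions.

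Members at the ends of this range encode proteins of unlike function. Ppp4r1 (16.9 CpGs per 100 bp), the secreted-protein gene Fam19a5 (16.6) and the kinase gene Map3k1 (16.3) had the most. Grik2 (0.70), Apbb1, which encodes an adaptor that binds the amyloid precursor protein (1.30), and Alyref2 (1.5), a gene related to an mRNA export factor, had the fewest. The Grik2 region reached 2068 bp upstream of its start, so its central 1000 bp lay upstream of the start, and its CpG-rich stretch was 803 bp long. The Apbb1 region contained no annotated start and touched no CpG-rich stretch.

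The CpG-rich stretch itself was longer at broad regions. It was taken as the longest run of 200 bp windows with over 50% GC and an observed to expected CpG ratio over 0.6 that touched the region, and it was allowed to extend past the region. A wide region touches more sequence, so the stretch was also taken over a window of the same size for all promoters. Its median length was 1545 bp (interval 1490 to 1593) in broad and 937 bp (interval 926 to 947) in narrow regions. Among stretches that touched the 1000 bp centered on the annotated start, the medians were 1569 bp (interval 1518 to 1612, n = 783) and 935 bp (interval 925 to 946, n = 7374). The part of a region made of such sequence was similar, with medians of 72.9% in broad (interval 71.6 to 74.8) and 74.2% in narrow (interval 73.6 to 74.7). In base pairs, a broad region held a median of 1714 bp of CpG-rich sequence and 627.5 bp of other sequence, against 899 and 324 bp in a narrow one. Stretches of over 2000 bp occurred at 175 broad regions (20.1%, interval 17.5 to 22.9) and at 2.14% of narrow regions. The longest at a member was 4105 bp, at the forkhead factor gene Foxo3. Only 3 broad regions touched no such stretch (0.344%, interval 0.117 to 1.01), compared with 3.24% of narrow regions. The counts of regions with a long stretch or none depend in part on how much sequence a region covers.

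CpG frequency at the region center rose with width up to the narrowest broad class and not beyond, whereas the stretch lengthened further. Broad centers lay a median of 295.5 bp from the start and narrow ones 103 bp, so the central windows compare unlike positions. Frequency at the annotated start was not compared by width class. From promoter regions under 1000 bp to those of 1500 to 1999 bp, the median frequency rose from 5.10 to 8.30 per 100 bp. It was 9.10 at 2000 to 2499 bp, 8.95 at 2500 to 2999 bp and 7.40 in the 76 regions of 3000 bp or more, whose quartiles of 5.30 and 9.12 lay below those of both narrower broad classes. The median stretch was 730.5 bp in the narrowest class and 1478, 1718 and 1810 bp in the 3 broad classes. With the window of fixed size at the start it was 736 bp in the narrowest class and 1500 (interval 1438 to 1560), 1730 (interval 1630 to 1854) and 1900 bp (interval 1591 to 2101) in the broad classes, the last 2 with overlapping intervals. Within the 872 members, Spearman's rho with width was -0.09 for CpG frequency at the region center and 0.21 for stretch length. These are values across regions of 1 list that are not independent.

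**Figure D2:**
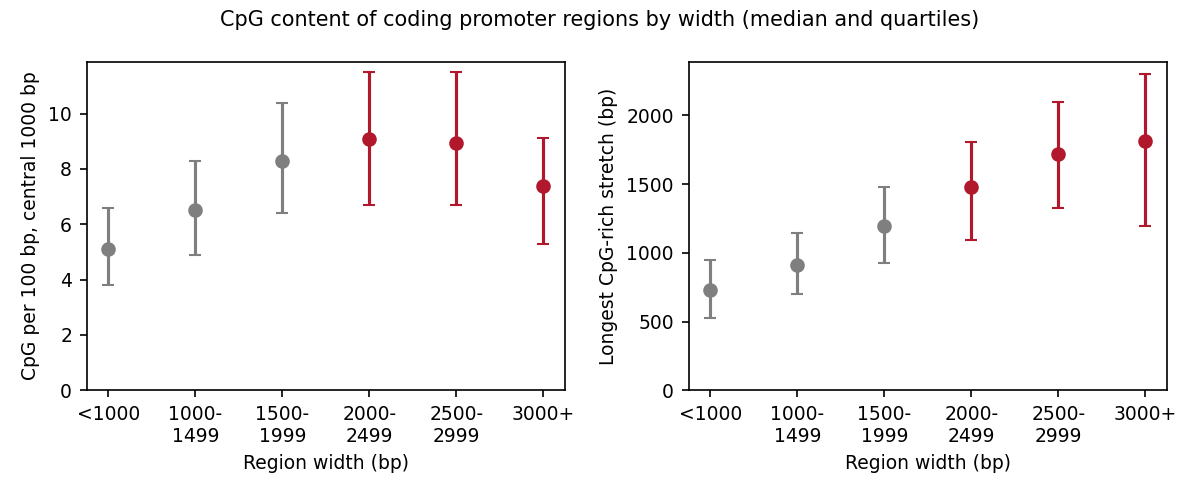
Median and quartiles of CpG frequency in the central 1000 bp (left, CpGs per 100 bp) and of the longest CpG-rich stretch (right, bp) for coding promoter regions in 6 classes of width, narrow in gray and broad in red. Frequency peaked at 9.10 in the class of 2000 to 2499 bp and was 7.40 in the widest class, while the stretch was longest there at 1810 bp.

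Broad regions extended further on both sides of the start, and more so into the gene. Upstream and downstream reach together make up the width, which chose the members, so the longer reach is a description. They reached a median of 1056 bp upstream (interval 1015 to 1089) and 1291 bp downstream (interval 1256 to 1339), compared with 587 and 636 bp for narrow regions. The center lay downstream of the start in 60.9% of broad (interval 57.6 to 64.1) and 57.5% of narrow regions (interval 56.4 to 58.5), with overlapping intervals. Individual members leaned either way. Nr4a2 reached 2908 bp upstream and 917 bp downstream, and Dusp6, which encodes a phosphatase of ERK kinases, 2426 and 714 bp. Klf13 reached 1141 bp upstream and 2959 bp downstream. Annotated exons made up a median of 22.9% of a broad and 26.0% of a narrow region, and 71.2% of broad regions contained coding sequence.

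A broad region held the starts of more than 1 gene somewhat more often, but not within a window of fixed length at the region center. In all, 188 broad regions (21.6%, interval 19.0 to 24.4) contained annotated starts of at least 2 genes, compared with 16.4% of narrow regions (interval 15.6 to 17.2). Within 500 bp of the region center, where both classes were searched over the same length, the shares were 12% (interval 10.0 to 14.4) and 15.5% (interval 14.7 to 16.3), the reverse order. Broad centers lay farther from the start, at a median of 295.5 bp against 103 bp, so this window was placed differently around the start. Among regions with centers within 500 bp of the start, the shares over whole regions were 22.6% and 16.7%. Over all regions, protein-coding genes alone gave 11.8% and 10.8%, with overlapping intervals. The regions with most starts were those of Mbd6, which encodes a methyl-CpG-binding domain protein, and Afdn, which encodes a junction protein, with 4 genes each. The Mbd6 region of 3391 bp also held the start of the stress-response gene Ddit3.

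Genes with a broad region more often had further accessible regions. Of the 867 genes, 416 (48.0%, interval 44.7 to 51.3) had at least 1 other region assigned to them, compared with 1800 of 7715 genes with narrow promoter regions only (23.3%, interval 22.4 to 24.3). Other regions more than 1 kb from the start gave 46.7% and 22.2%. At least 5 regions were assigned to 72 genes with a broad region (8.30%) and to 1.93% of the others, and the mean number was 2.08 ± 1.62 (SD over genes) against 1.40 ± 1.01. The share rose from 19.5% for promoter regions under 1000 bp to 75% for those of 3000 bp or more, counted over regions. It was higher at broad regions on each of the 20 chromosomes.

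Genes with broad regions were also longer, with a median span of 68.0 kb (interval 59.9 to 79) against 27.8 kb (interval 26.9 to 28.6), and a longer gene offers more room for assigned regions. The comparison was therefore repeated within quartiles of span. In the shortest quartile, up to 12.6 kb, 33.6% of 140 broad genes (interval 26.3 to 41.7) and 14.9% of 1863 narrow genes (interval 13.4 to 16.6) had another region. In the longest, from 70.6 kb, the shares were 59.1% (interval 54.1 to 63.9) and 39.5% (interval 37.1 to 41.9). The intervals did not overlap in any quartile. Broad regions also lay in sparser surroundings, with a median gap to the next region of 49853 bp against 36393 bp, and another region within 50 kb at 48.9% against 61.0%. How regions were assigned to genes is not stated. The part of span beyond these quartiles, and of spacing, in the number of assigned regions was not tested.

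**Figure D3:**
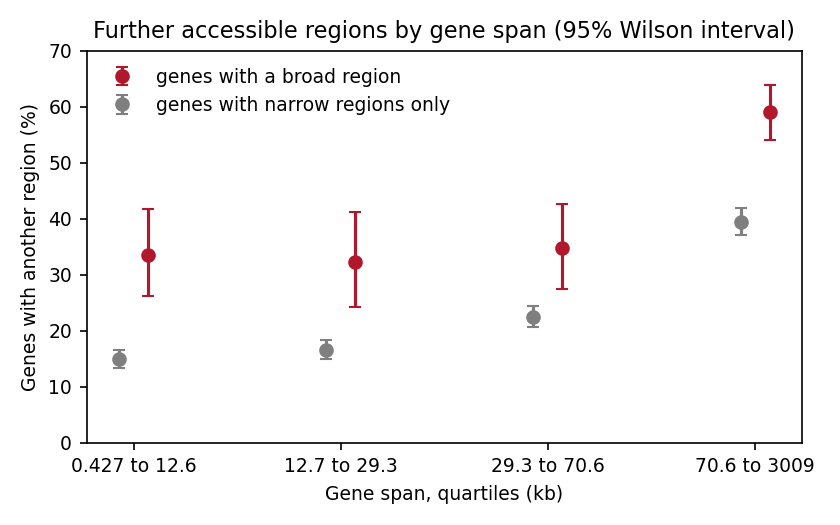
Share of genes with at least 1 further accessible region (%, with 95% Wilson intervals) in quartiles of gene span (kb), for genes with a broad promoter region (red) and with narrow ones only (gray). Broad genes were higher in each quartile, from 33.6% against 14.9% in the shortest to 59.1% against 39.5% in the longest.

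Several genes with many regions encode proteins of the cell surface. Efnb2, a ligand of Eph receptors that marks arteries, had 11, with the other regions 40949 to 1337869 bp from the start on the downstream side. Robo1, a receptor for the Slit guidance proteins, and the Eph receptor Epha7 had 10 each. More than 1 broad region was assigned to 4 genes. The genome organizer Satb1 had regions of 3037 and 2659 bp, the neurotrophin Bdnf had 3200 and 2878 bp, and the junction scaffold Magi1 had 3050 and 2109 bp. In each of these genes the regions lay at separate starts. The members were unlike in Magi1, with 11.2 CpGs per 100 bp at one start and 2.30 at the other. The remaining gene, LOC100861615, lies in repeated sequence.

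Sequence motifs were counted in 300 bp at the annotated start, on both strands, so that width did not enter. The largest difference in percentage points among the 12 motifs was in the ETS core CCGGAAG, the site of ETS factors. It occurred at 58 of 783 broad promoters (7.41%, interval 5.77 to 9.46) and at 1423 of 7374 narrow ones (19.3%, interval 18.4 to 20.2), with 18.2% over all coding promoter regions. In 300 bp at the region center it was 5.50% against 17.4%, and lower in broad regions on each of the 20 chromosomes. Broad centers lay a median of 295.5 bp from the start and narrow ones 103 bp, so the center window held the start less often in broad regions. At the annotated start the share was 21.7% under 1000 bp and 21.4% at 1000 to 1499 bp. It was lower in wider classes, at 12.5% at 1500 to 1999 bp and 4.62% at 3000 bp or more.

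The core of NRF1, TGCGCATG, was found at 1.15% of broad starts (interval 0.606 to 2.17) and 3.96% of narrow starts (interval 3.54 to 4.43). That of YY1, AAGATGGC, was at 3.70% (interval 2.59 to 5.27) and 5.94% (interval 5.42 to 6.50). The CCAAT box was at 30.8% against 36.8%, and the E-box CACGTG at 6.64% against 9.17%, the latter with intervals that overlapped slightly (5.10 to 8.61 and 8.53 to 9.85). The GC box GGGCGG, the site of Sp and Klf factors, went the other way, at 81.1% (interval 78.2 to 83.7) against 72.4% (interval 71.4 to 73.5), although at the region center the shares were 68.0% and 69.7%. The intervals overlapped for the TATA box TATAAA (4.34% and 3.57%), and for the homeodomain core TAATTA, the GATA core AGATAA, the TEAD core GGAATG, the forkhead core GTAAACA and the cAMP response element, CRE (TGACGTCA). At the region center, in contrast, the intervals did not overlap for the CRE, at 0.917% (interval 0.466 to 1.80) against 2.93% (interval 2.58 to 3.32), or for the E-box, at 4.93% (interval 3.68 to 6.58) against 8.34% (interval 7.75 to 8.97). Because broad centers lay farther from the start, the center values compare unlike positions in broad and narrow promoters. Broad and narrow regions also differed in GC content, and only the ETS core was compared within classes of CpG frequency. The part of base composition in the shares of the GC box, the CCAAT box and the other motifs was not tested. A match to these letters is not a measured binding site.

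**Figure D4:**
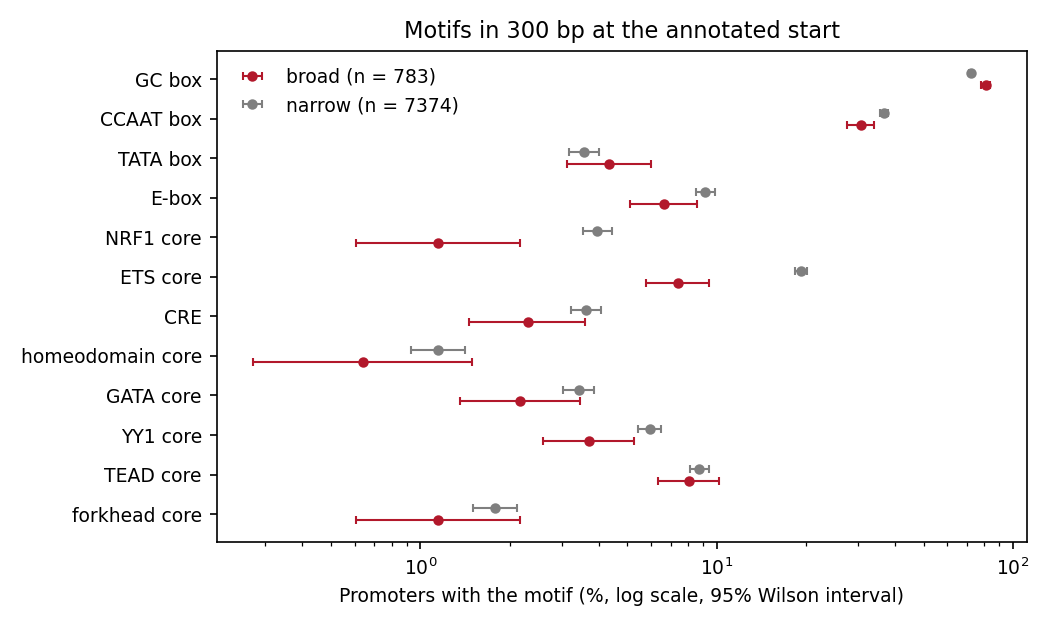
Share of promoters with each of 12 motifs in 300 bp at the annotated start (%, log scale, with 95% Wilson intervals) for 783 broad (red) and 7374 narrow (gray) regions. The ETS core stood at 7.41% against 19.3% and the NRF1 core at 1.15% against 3.96%, and the GC box was the one motif whose interval lay higher in broad regions, at 81.1% against 72.4%.

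The lower share of ETS cores held within each quartile of CpG frequency. Among genes in the lowest quartile of CpG frequency at the start, 5.68% of 88 broad genes (interval 2.45 to 12.6) and 16.3% of 1915 narrow genes (interval 14.8 to 18.1) had the motif, and in the highest quartile 6.02% of 399 (interval 4.08 to 8.79) and 14.6% of 1604 (interval 12.9 to 16.4). The same order was seen in each quartile of gene span. There the intervals overlapped in the second quartile only, from 12.7 to 29.3 kb, with 18.3% (interval 12.3 to 26.3) against 24% (interval 22.1 to 26.0). The share of genes with a broad region rose with CpG frequency, from 4.39% in the lowest quartile to 19.9% in the highest, and was 18.9% in the longest quartile of span against 5.74 to 7.34% in the other 3.

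Gene families differed in how many of their promoter regions were broad. Over all genes with a coding promoter region the share was 10.1% (867 of 8582), and the median width of a gene's widest promoter region was 1299 bp. The 11 lists of transcription factor families together had 37 of 144 genes broad (25.7%, interval 19.3 to 33.4), and 7 lists of signaling and guidance genes had 42 of 146 (28.8%, interval 22.0 to 36.6). These unions were chosen after their values were seen, and adding the large family of Zfp zinc-finger genes to the former gave 49 of 427 (11.5%, interval 8.79 to 14.8), near the background. The 139 genes of the ribosome, respiratory complex I and the proteasome with a coding promoter region had none (0%, Wilson upper bound 2.69%), and their widest region was 1837 bp. Width is the rule, so these counts describe the members and were not tested. Among these 3 groups the ETS core was at 3.85%, 6.87% and 34.6% of starts, against 18.2% over all coding promoter regions. Median CpG frequency at the start was 7.70, 7.60 and 6.05 per 100 bp. With the Zfp genes added, the transcription factor lists had the ETS core at 17.5% of starts, near that background, and a median of 5.70 CpGs per 100 bp.

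**Figure D5:**
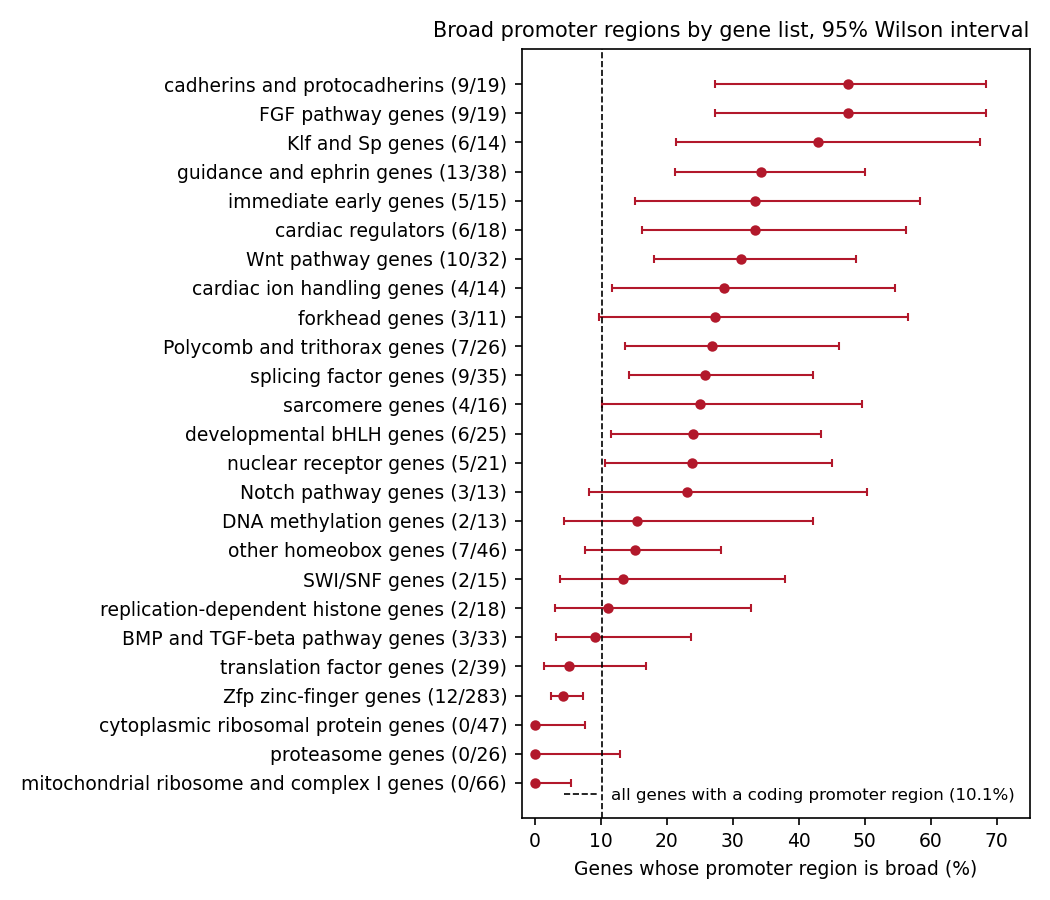
Share of genes whose promoter region was broad (%, with 95% Wilson intervals) for the gene lists with at least 10 genes with a promoter region; counts are in the labels, the dashed line is the 10.1% of all genes. FGF pathway genes and cadherins stood highest at 47.4%, and the 3 lists of ribosome, complex I and proteasome genes were at 0%.

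The fibroblast growth factor (FGF) pathway, which maintains second heart field progenitors, had 9 of 19 genes broad (47.4%, interval 27.3 to 68.3), and each of the 9 had another region. Several encode feedback inhibitors of the pathway. After Spry2, with 4 regions, these were Dusp6 (3141 bp, 5 regions), the Sprouty-related genes Spred2 (2977 bp) and Spred1 (2944 bp), and Spry4 (2195 bp). Etv1, an ETS-family effector induced by FGF signals, had 3231 bp. Of the genes for FGF proteins, Fgf10 had 3094 bp, with 3.00 CpGs per 100 bp and a CpG-rich stretch of 488 bp, both far under the broad medians. Fgf14 (2577 bp) and Fgf13 (2434 bp) encode intracellular relatives that are not secreted.

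The Wnt pathway had 10 of 32 genes broad (31.2%, interval 18 to 48.6), with examples at the levels of ligand release, reception and inhibition. The secreted antagonist Dkk2 had 3034 bp and the receptors Fzd4 and Fzd8 had 2620 and 2512 bp. Wls, which carries Wnt proteins to the cell surface, had 2460 bp and 6 regions. The BMP and TGF-beta pathway was near the background, with 3 of 33 genes broad (9.09%, interval 3.14 to 23.6), namely the BMP antagonist Grem1, the receptor Acvr2b and the ligand Bmp2. In the Notch pathway 3 of 13 were broad: Hey2, a repressor acting in the ventricle, at 3181 bp, the DNA-binding effector Rbpj at 3038 bp and the ligand Jag1 at 2252 bp. The Hedgehog effectors Gli3 (2629 bp, 9 regions) and Gli2 (2480 bp) were the broad genes among 7 of that pathway. Of the 4 retinoic acid genes, Rdh10, which makes the precursor of retinoic acid, had 2533 bp and the receptor Rarg had 2194 bp.

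Genes of cell adhesion and guidance were often broad. Among cadherins and protocadherins the count was 9 of 19 (47.4%, interval 27.3 to 68.3), and 8 of the 9 had another region. Cdh11, a cadherin of mesenchyme, had 3640 bp and 8 regions, Cdh20 had 2873 bp and 8 regions, Pcdh9 had 2586 bp and 7, and Cdh2, the N-cadherin of cardiomyocytes, had 2482 bp and 4. Among guidance and ephrin genes 13 of 38 were broad (34.2%, interval 21.2 to 50.1). These included Nrp1, a co-receptor for semaphorins and VEGF, at 3639 bp, the semaphorin Sema4c at 3542 bp, Efnb2 at 2662 bp and the Eph receptor Epha6 at 2485 bp. Nrp1, Sema4c and Epha6 had no other region.

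Regulators of heart development had 6 of 18 genes broad (33.3%, interval 16.3 to 56.3), and 5 of the 6 had another region. After Fgf10 came Tbx18, a T-box factor of the epicardium and sinus node, at 2674 bp with 12.2 CpGs per 100 bp, and Zfpm2, the FOG cofactor of GATA4, at 2339 bp with no other region. Jag1 had 2252 bp and 8 regions. The myocyte enhancer factor Mef2c had 2193 bp with 4.70 CpGs per 100 bp, and Bmp2 had 2091 bp with 11.5. The other 12 were narrow, with 1084 bp at Mef2d, and Isl1 itself had 1709 bp and 9 regions. CpG frequency did not separate the 6 from the 12, since the narrow promoter regions spanned 4.80 to 11.7 CpGs per 100 bp and the broad ones 3.00 to 12.2.

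Other transcription factor families varied. Klf and Sp genes had 6 of 14 broad (42.9%), led by Klf13, Sp4 (2647 bp), Klf15 (2539 bp) and Klf3 (2385 bp). Sox genes had 3 of 7, with Sox12, Sox5 (2254 bp, 7 regions) and Sox11 (2150 bp), and the 3 differed in CpG frequency at 14.9, 2.20 and 11.0 per 100 bp. Zic and Gli genes also had 3 of 7, and forkhead genes had 3 of 11 with Foxo3 (3200 bp), Foxp2 (3064 bp) and Foxn2 (2294 bp). Developmental bHLH genes had 6 of 25 and nuclear receptors 5 of 21. The smaller families had too few genes for a share, with 1 of 2 Pax genes, 1 of 6 T-box genes, 2 of 4 GATA and FOG genes and 0 of 1 Hox gene broad. Homeobox genes outside the Hox clusters were nearer the background with 7 of 46 (15.2%, interval 7.57 to 28.2). Among them were Meis2 (3217 bp) and Meis1 (2762 bp), cofactors of Hox and Pbx proteins, and Six4 (2501 bp). The large family of Zfp zinc-finger genes lay under it, with 12 of 283 (4.24%, interval 2.44 to 7.26), and Zfp804a was widest at 2712 bp.

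Broad regions also occurred at immediate early genes and at some genes of general function. Of the immediate early genes, which are induced within minutes of stimulation, 5 of 15 were broad, namely Jun, Nr4a2, Myc (3011 bp), Egr2 (2578 bp) and Egr1 (2209 bp). Splicing factor genes had 9 of 35 broad (25.7%, interval 14.2 to 42.1), led by U2af2 (2901 bp), which recognizes the polypyrimidine tract, Hnrnpul1 (2590 bp) and Hnrnpa3 (2551 bp). Polycomb and trithorax genes had 7 of 26 (26.9%, interval 13.7 to 46.1), with the histone demethylase Kdm6a (3214 bp) and the methyltransferases Kmt2c (2721 bp) and Kmt2a (2321 bp), and only 1 of the 7 had another region. SWI/SNF genes, whose products form the complex built on Brg1, had 2 of 15 (13.3%, interval 3.74 to 37.9). These were the subunit Arid1b (2541 bp) and Smarca5 (2308 bp), which matched the list by name and encodes an ISWI remodeler. DNA methylation genes had 2 of 13, Mbd6 and Mbd5 (15.4%, interval 4.33 to 42.2). Replication-dependent histone genes had 2 of 18, Hist1h3a and Hist1h3b (11.1%, interval 3.10 to 32.8). Translation factor genes had 2 of 39 (5.13%, interval 1.42 to 16.9), Eif4e and Eif1a. For the SWI/SNF, DNA methylation, histone and translation factor lists the interval held the 10.1% of all genes.

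Genes of contraction and ion handling had wide intervals. Sarcomere genes had 4 of 16 broad (25%, interval 10.2 to 49.5), namely Tpm4 (2366 bp) and Actn1 (2260 bp), whose actin-binding products also serve nonmuscle cells, the LIM-domain gene Csrp2 (2218 bp), and Nebl (2037 bp), which encodes a Z-disc protein of the heart. Of the cardiac ion handling genes, 4 of 14 were broad (28.6%, interval 11.7 to 54.6), each with another region. They included the potassium channels Kcnj3 (2843 bp) and Kcnj2 (2363 bp, 7 regions) and the calcium channel subunit Cacnb2 (2291 bp, 7 regions). Markers of other tissues were few. The 4 endothelial genes and 1 blood gene with a coding promoter region had no broad one. Of the 4 neural genes, Pax6 (3667 bp) and Map2 (2600 bp) were broad, and of the 7 neural crest genes Twist1 (2210 bp) was. Which cells of the dissected tissue carried these regions was not tested.

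How the list was made bears on width. The methods name an intersection option that writes the whole interval of 1 input, so each width would be that of a peak in 1 library. Peaks of the other libraries needed only to share 1 bp with it. Which library gave the intervals is not stated. The intersection writes a region again for each further peak it meets in another library, so a repeated row can mark a stretch that another library split into several peaks. In the list 75 of the 872 broad regions were repeated (8.60%, interval 6.92 to 10.6), compared with 58 of 7893 narrow regions (0.735%, interval 0.569 to 0.949). Among broad regions the share was 5.92% at 2000 to 2499 bp and 18.4% at 3000 bp or more (14 of 76). A wider region can meet more peaks by its length alone, and width chose the members, so these shares are a description. The 797 members listed once had a median width of 2291 bp, 9.0 CpGs per 100 bp, a CpG-rich stretch of 1558 bp, another region for 48.5% of genes and the ETS core at 7.71% of starts. For the 75 listed more than once these were 2518 bp, 7.0, 1357 bp, 42.7% and 4.29%. Read depth and signal height, with which called width also moves, were not in the list.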

How the data were processed

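Per the paper's methods and the submitters' processing notes, the authors mapped paired ATAC-Seq reads to mm9 with bowtie2, filtered them with samtools, removed duplicates with Picard 1.136, called peaks per library with MACS and intersected the 3 control libraries with bedtools 2.15, where sharing 1 bp sufficed. The methods also give a calling threshold and a shift size for MACS, and name peaks overlapping the ENCODE blacklist. The deposited columns hold positions and distances in bp. The tool that assigned genes is not stated for these regions. No Tn5 offset and no mapping quality filter are stated, so edges are not insertion sites and repeated sequence can collect reads.

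Samples were grouped by genotype. No column was left unmapped (0 columns). Positions were taken as 1-based and closed, and identical rows (17432 in all) were counted once. Sequence came from NCBIM37, and starts, exons and spans from its GENCODE annotation, matched by symbol or RefSeq synonym for 866 of 872 members. A gene's own start was used where it matched the deposited distance within 100 bp. No member was filtered on low values.

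The members, the 37 gene lists and the motifs were chosen with earlier results of these data known, so no list count is independent support. Named genes were the 12 widest regions, the 4 on each side of the limit, up to 4 widest per list, the 3 highest and 3 lowest in CpG frequency, and those with most regions or starts. Some genes that this rule would name are not reported here and remain in the counts. Other members named to complete a list, the genes named as having no region, and the unions of lists were chosen after their values were seen. Alternatives changed the width and distance limits, the rows and chromosomes used, the windows and the motif position. Scripts were tested on simulated sequence. Python 3.11.15, numpy 2.4.6, pandas 2.3.3, scipy 1.17.1 and matplotlib 3.10.9 were used.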

Additional observations from a re-analysis of the deposited data

How the results depend on the processing

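Of 38 recomputed values, 24 moved by less than their 95% interval (counts by less than 1.5 times) and 14 by more. Width limits of 1500 and 2500 bp gave 2828 and 264 regions in place of 872, stretches of 1278 and 1736 bp, and another region for 38.2% and 59.2% of genes, and 2500 bp gave 8.20 CpGs per 100 bp. The CpG frequency was 9.35 with centers within 500 bp of the start and 6.43 over the whole region (narrow regions 5.90). A stricter CpG-rich sequence (GC over 55%, ratio over 0.65) gave 1294 bp. Starts of at least 2 genes were at 12% within 500 bp of the center and 11.8% for coding genes. With all rows as deposited, another region was counted for 52.9% of genes, because a repeated row then counts as another. The ETS core was at 7.41% at the annotated start and 5.50% at the center. In the 6 alternatives that changed the limits, rows or chromosomes, broad regions remained above narrow ones in CpG frequency, stretch and other regions, and below them in ETS cores. Leaving out regions of repeated sequence, the stretch at the annotated start and the motifs there were added after seeing the data. The first left 862 members. Widths could not be set against depth or signal, and no library could be left out of the single list. No paired analysis was possible because the list has no value per library.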

Other observations

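Broad regions were spread unevenly over the chromosomes. On the 19 autosomes they made up 10.3 ± 2.53% (mean and SD over autosomes) of coding promoter regions. Chromosome 10 had the highest share, 64 of 470 (13.6%, Wilson interval 10.8 to 17.0), and chromosome X the lowest, 17 of 351 (4.84%, interval 3.05 to 7.62). Chromosomes 19 (6.07%) and 11 (6.37%) came next from the bottom. Chromosomes 11 and 19 were among the densest in promoter regions, at 4.64 and 4.03 per Mb, and X was the sparsest at 2.11 per Mb. The median CpG frequency of narrow promoter regions on X was 5.10 per 100 bp, below the 5.90 to 7.20 of the autosomes, while that of its broad regions, 8.10, was within the autosomal 7.35 to 10.5.

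A small set of members lies in repeated sequence. In 10 of the 872 (1.15%) more than 50% of the 31-mers have a further copy elsewhere, a share like the 1.18% of narrow regions. Of these, 6 lie on chromosome 14, between 3048420 and 8402785, with 3 assigned to LOC100861615 and 1 each to Gm3636, Gm3558 and Gm3696, and widths of 2151 to 3389 bp. The others were at Zfp442 and Gm14325 on chromosome 2, Syt11 on chromosome 3 and Nudt10 on X. Reads in such sequence cannot be placed with certainty, so the widths of these regions and their assignment to 1 copy are uncertain.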
